A study of Homo sapiens with 12 samples.

Results

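Transcripts of the interleukin-10 (IL-10) pathway were followed in U937, a human pro-monocytic leukaemia cell line, after treatment with antibodies against the inhibitory receptor LILRB3. The 8 genes were the ligand IL10, the receptor chains IL10RA and IL10RB, the kinases JAK1 and TYK2, the transcription factor STAT3, and the STAT3-inducible genes SOCS3 and IL1RN. They were picked by symbol from 27827 gene symbols in the 2 deposited tables, knowing that IL10 had almost no counts except with the agonist antibody. All 8 were in the table of set 1 and 3 of them, IL10, SOCS3 and IL1RN, were in the table of set 2. Set 1 held 3 libraries of cells given the LILRB3 antagonist antibody and 3 of cells given nonspecific IgG. Set 2 held 3 libraries with the LILRB3 agonist antibody and 3 with its own IgG controls. All 4 groups shared a pretreatment with 50 ng/mL interferon gamma, per the labels, and the antibodies were given for 72 hours at a concentration that the labels write as 5 mg/mL. The 2 comparisons shared no control libraries. U937 is a single cell line. Separate cultures are not named in the labels, so a p-value here speaks only for the variation among these libraries, which may be technical.

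IL-10 is a cytokine that restrains inflammatory gene expression in monocytes and macrophages, which both make it and respond to it. It binds IL10RA, which carries JAK1, and IL10RB, which carries TYK2, and the kinases phosphorylate STAT3, which then enters the nucleus and drives transcription. Among the STAT3-inducible genes, SOCS3 encodes an inhibitor of JAK kinases at gp130-type receptors, and IL1RN encodes the interleukin-1 receptor antagonist, which blocks interleukin-1 at its receptor. Read counts report transcript levels only, and neither phosphorylation nor secreted protein was measured here.

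The tables of the sets differed in their summed counts, and the sets differed in the levels of some genes, controls included. In set 1, counts of named genes summed to between 17035334 and 17771980 in antagonist libraries and between 17142362 and 18820312 in IgG libraries. The set 2 table listed 904 genes, with sums of 3135972 to 3522203 in agonist libraries and 2764479 to 3321678 in IgG libraries. None of its log2 fold changes lay within 0.1 of zero, against 23.1% of genes in set 1, so it was read as a selected part of a larger table, whose totals are not library depths. Although the labels give interferon gamma for both sets, the interferon gamma-inducible chemokine CXCL10 had 0, 0 and 1 counts in antagonist libraries and 0 in each IgG library of set 1. In set 2 it had 543, 449 and 541 counts in agonist libraries and 756, 620 and 789 in IgG libraries. Of 17 monocyte and macrophage markers, 16 passed the count filter in set 1, and CD14 did not, with 5, 5 and 3 counts in antagonist and 7, 6 and 9 in IgG libraries. Agonist library 1 and, in set 1, IgG library 1 stood farthest from the other libraries of their groups, with a chi-square per degree of freedom against their partners of 25.1 and 26.7 for the agonist library and 11 and 19.9 for the IgG library. The remaining pair of each of those groups gave 3.75 (agonist) and 4.54 (IgG).

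To place the 3 genes counted in both sets, the 250 bases before a RefSeq transcript start were read for each (GRCh38.p14). IL10 lies on chromosome 1 (206767602 to 206772494, minus strand), SOCS3 on chromosome 17 (78356778 to 78360925, minus strand) and IL1RN on chromosome 2 (113099360 to 113134014, plus strand). The windows shown are the most upstream of 3 for IL10, the most upstream of 2 for SOCS3, and for IL1RN the middle of 3, chosen because it held a match. They lie at chr1:206772495-206772744 (minus strand), chr17:78360926-78361175 (minus strand) and chr2:113127239-113127488 (plus strand). Capitals mark palindromic motifs of the kind that STAT dimers bind, TTCNNGAA, TTCNNNGAA or TTCNNNNGAA, which read the same on either strand.
IL10: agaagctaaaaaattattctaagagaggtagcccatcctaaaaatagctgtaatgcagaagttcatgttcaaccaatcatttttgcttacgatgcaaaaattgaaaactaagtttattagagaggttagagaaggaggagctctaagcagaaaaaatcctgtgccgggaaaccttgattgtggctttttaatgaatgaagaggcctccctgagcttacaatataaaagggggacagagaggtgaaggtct
SOCS3: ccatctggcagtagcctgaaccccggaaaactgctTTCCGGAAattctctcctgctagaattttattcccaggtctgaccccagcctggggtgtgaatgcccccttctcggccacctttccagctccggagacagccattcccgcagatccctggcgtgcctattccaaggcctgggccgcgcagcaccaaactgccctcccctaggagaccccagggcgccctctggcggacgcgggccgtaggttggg
IL1RN: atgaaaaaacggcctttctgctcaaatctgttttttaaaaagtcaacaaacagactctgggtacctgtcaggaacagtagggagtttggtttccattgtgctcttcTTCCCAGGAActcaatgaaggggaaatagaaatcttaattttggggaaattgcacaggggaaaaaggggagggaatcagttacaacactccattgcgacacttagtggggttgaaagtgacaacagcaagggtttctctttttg
The SOCS3 window held TTCCGGAA at 215 to 208 bases before the start, and the IL1RN window held TTCCCAGGAA at 144 to 135 bases before it. The IL10 window held no match, nor did the other IL10 windows. Of 35116 windows of this length, 6.62% held TTCNNGAA, 6.57% TTCNNNGAA, 5.38% TTCNNNNGAA and 17.1% any of them. STAT3 itself (TTCATGAA, 131 to 124 bases before its start) and the most downstream JAK1 window (TTCTAGAA) also held a match, whereas the IL10RA, IL10RB and TYK2 windows held none. A match is a string of letters and does not show binding.

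IL10 transcripts were counted in every agonist library and were at or near 0 in all other groups. The counts were 16, 16 and 37 in agonist libraries and 1, 0 and 0 in their IgG libraries. The groups did not overlap, as was so for 97.6% of the 904 listed genes (53.4% higher, 44.1% lower with the agonist), and agonist library 3 was well above the other agonist libraries. Summed over libraries, 69 counts (95% exact Poisson interval 53.7 to 87.3) in agonist libraries stood against 1 count (0.0253 to 5.57) in IgG libraries. Scaled by the listed counts, the ratio of agonist to IgG was 63.6, with a 95% counting interval of 11 to 2546. The fitted log2 fold change of 5.57 ± 0.94 (SE) rests on the prior count added to libraries at 0. Intervals cover counting error only. Because IL10 was chosen for this pattern, these values are a description with no test.

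In set 1 the ligand stayed at the counting floor. IL10 had 0, 1 and 3 counts in antagonist libraries and 3, 1 and 0 in IgG libraries, a sum of 4 in each group. As a share of all counts, that is 0.0764 CPM (library-size scaled counts, without TMM; 95% exact Poisson interval 0.0208 to 0.196) with the antagonist and 0.0751 CPM (0.0205 to 0.192) with IgG. No library exceeded the floor of 3 counts, so no fold change was taken and no difference was detectable at this depth. Cells with more IL10 transcripts and more cells with any cannot be told apart in bulk libraries.

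**Figure D1:**
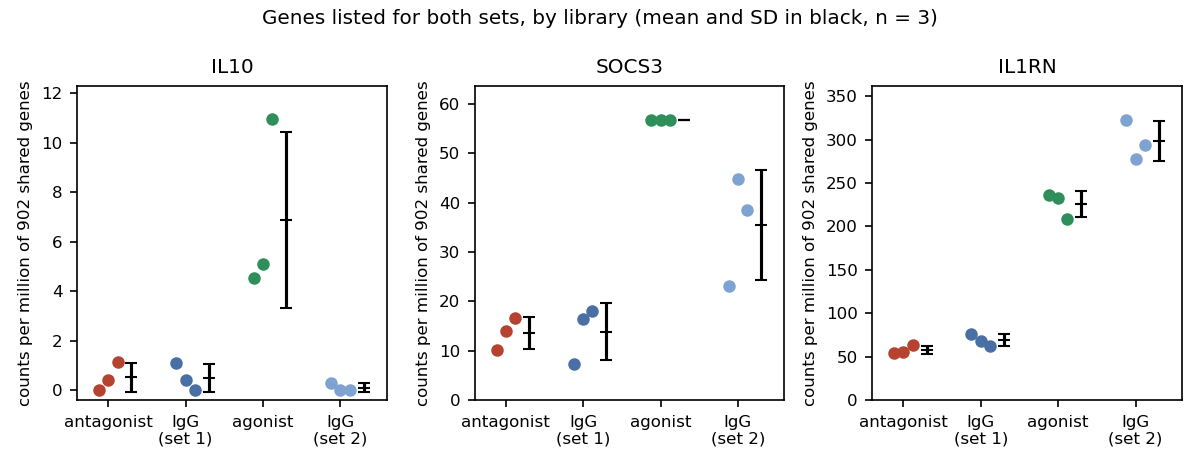
CPM over the 902 genes listed for both sets (y axis) for IL10, SOCS3 and IL1RN in the 3 libraries of each group (points), with the mean and SD in black. IL10 was above 4 CPM only in agonist libraries, and IL1RN was over 200 CPM in both groups of set 2 and under 80 CPM in both groups of set 1.

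The STAT3-inducible genes in the set 2 table differed from IgG in opposite directions. SOCS3 had 58.4, 56.3 and 56.4 TMM-scaled CPM of listed genes in agonist libraries and 23.3, 44.4 and 38 CPM in IgG libraries. Every agonist library was above every IgG library, and the spread lay almost wholly in the IgG group, whose first library was the lowest. The means were 57.1 ± 1.2 CPM with the agonist and 35.2 ± 10.8 CPM with IgG (SD, n = 3 each), a log2 fold change of 0.71 ± 0.20 (SE), or 1.63-fold. IL1RN, in contrast, had 243, 231 and 208 CPM in agonist libraries and 324, 274 and 291 CPM in IgG libraries. All 3 agonist libraries were below the lowest IgG library, with means of 227 ± 18 CPM for the agonist and 297 ± 25 CPM for IgG and a log2 fold change of -0.38 ± 0.09. Of the 904 listed genes, 99.9% passed an adjusted p of 0.05 (edgeR), 55.6% higher and 44.2% lower, so the calls follow from how the table was selected. Nothing is therefore read from the calls of IL10, SOCS3 and IL1RN, and no p-value is given for them. With DESeq2-type (RLE) size factors in place of TMM, the share of higher calls was 44.2% of 717 against 55.7% of 903, with 317 genes called higher against 503. The remaining members, the receptor chains, both kinases and STAT3, were not among the listed genes and were not analysed here for the agonist.

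On a scale common to both tables, CPM over the 902 shared genes without TMM, the controls of the sets differed more for IL1RN and SOCS3 than either antibody differed from its own control. IL1RN had 226 ± 15 CPM in agonist and 298 ± 23 in set 2 IgG libraries, and 57.8 ± 4.7 CPM in antagonist and 68.9 ± 6.7 in set 1 IgG libraries (SD, n = 3 each). SOCS3 had 56.7 ± 0.06 CPM in agonist and 35.5 ± 11.1 in set 2 IgG libraries, and 13.6 ± 3.3 CPM in antagonist and 13.9 ± 5.8 in set 1 IgG libraries. The mean of set 2 IgG was thus 4.33 times that of set 1 IgG for IL1RN and 2.56 times for SOCS3. The order of the groups for IL1RN was set 2 IgG, agonist, set 1 IgG and antagonist, and for SOCS3 agonist, set 2 IgG, and the set 1 groups, which overlapped. The IL1RN groups of set 1 also overlapped on this scale, with 54.7 to 63.2 in antagonist and 62.4 to 75.7 in IgG libraries. The tables were normalized separately and the shared genes were selected in set 2, so these levels across sets were not tested.

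With the antagonist antibody, 3 of the 7 pathway genes above the count filter passed the test, IL10RA higher and IL10RB and IL1RN lower. Among all 13778 genes tested, 36.1% passed an edgeR adjusted p of 0.05 (15.6% higher, 20.5% lower), so a share of 3 in 7 lies near the background. Groups did not overlap for 6 of the 7, against 49% of all genes (21.9% higher, 27.1% lower). The median log2 fold change of the 7 genes was -0.07 and that of all genes was -0.01. With column totals in place of TMM scaling, the share of higher calls over all genes was 65.4% instead of 43.1%. Without IgG library 3, 5 of the 7 passed, and leaving out each of the other libraries gave 2 or 3.

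**Figure D2:**
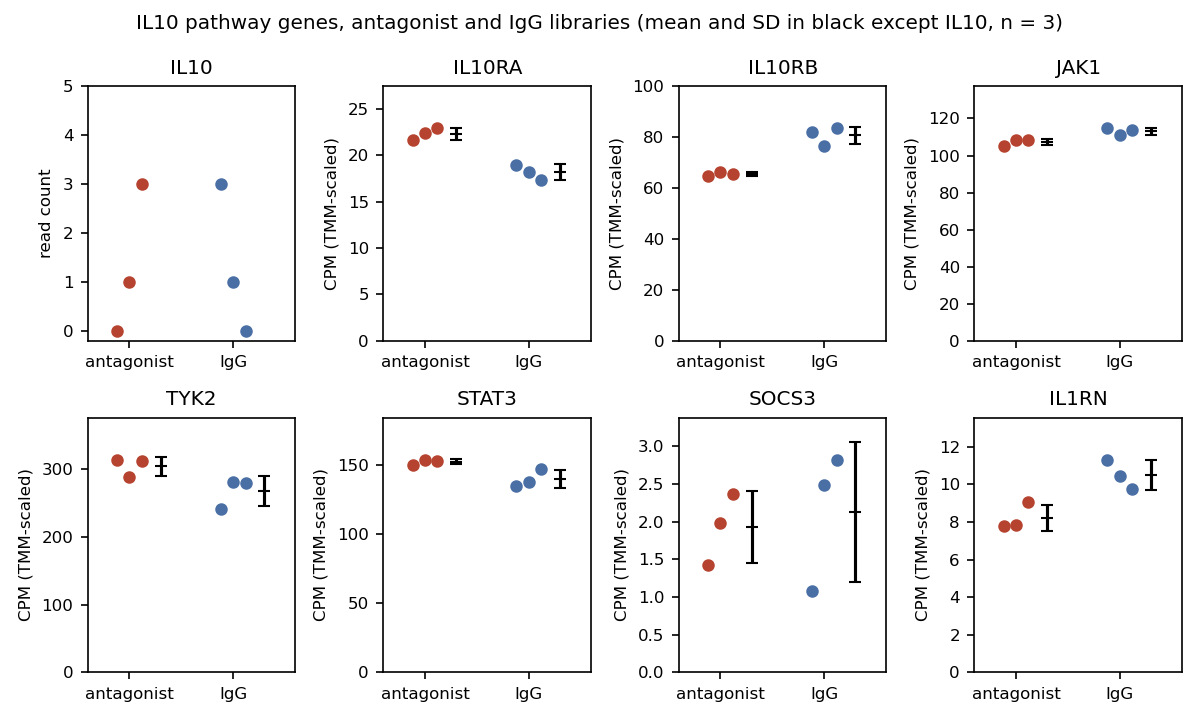
Level of each pathway gene in the 3 antagonist and 3 IgG libraries of set 1 (points), as TMM-scaled CPM or, for IL10, read counts, with the mean and SD in black. IL10RA, TYK2 and STAT3 libraries were higher with the antagonist without overlap, IL10RB, JAK1 and IL1RN lower without overlap, and SOCS3 overlapped.

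The receptor chains moved in opposite directions. IL10RA (chromosome 11, 117986394 to 118003037), the ligand-binding chain found mainly on haematopoietic cells, had 21.6, 22.4 and 22.9 CPM in antagonist libraries and 19, 18.2 and 17.3 CPM in IgG libraries. The groups did not overlap and each stayed within a narrow range. The means were 22.3 ± 0.6 CPM with the antagonist and 18.2 ± 0.8 CPM with IgG (SD, n = 3 each), and IL10RA rose by 0.29 ± 0.08 on the log2 scale (SE; edgeR adjusted p = 0.0154), a call lost without antagonist library 3 (0.27, adjusted p = 0.0658). IL10RB (chromosome 21, 33266367 to 33310182), the broadly expressed second chain that also serves other cytokines of the IL-10 family, had 64.6, 66.5 and 65.5 CPM in antagonist libraries and 81.9, 76.7 and 83.4 CPM in IgG libraries. All antagonist libraries lay below all IgG libraries. The means were 65.5 ± 0.9 CPM with the antagonist and 80.7 ± 3.5 CPM with IgG, and IL10RB fell by 0.30 ± 0.06 on the log2 scale (edgeR adjusted p = 0.00253). This call held in all 11 alternatives tried. A gene on the same strand overlaps IL10RB in GENCODE release 29 and can share its reads.

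JAK1 and TYK2, the kinases bound to these chains, did not pass. JAK1 (chromosome 1, 64833229 to 65067746) had 105, 108 and 109 CPM in antagonist libraries and 115, 111 and 114 CPM in IgG libraries. The groups did not overlap, but the difference was small, at -0.07 ± 0.05 (edgeR adjusted p = 0.306), and its sign turned with column totals (0.0053). Reads of RAVER2, which overlaps JAK1 on the other strand, cannot be told apart from JAK1 without strand, and RAVER2 had 105 to 147 counts in antagonist libraries and 128 to 130 in IgG libraries, against 1844 or more for JAK1. TYK2 (chromosome 19, 10350533 to 10380572) had 314, 288 and 312 CPM in antagonist libraries and 242, 282 and 279 CPM in IgG libraries. The antagonist libraries were all higher, with antagonist library 2 close to the IgG range and IgG library 1 well below the other IgG libraries. The log2 fold change was 0.19 ± 0.07 (edgeR adjusted p = 0.0534). TYK2 passed in 7 of the 11 alternatives, including the one without IgG library 1 (0.15, adjusted p = 0.0301).

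STAT3 (chromosome 17, 42313324 to 42388442), the factor that carries the signal to the nucleus, had 150, 154 and 153 CPM in antagonist libraries and 135, 137 and 147 CPM in IgG libraries. The groups did not overlap, with IgG library 3 nearest to the antagonist libraries. The means were 152 ± 2 CPM with the antagonist and 140 ± 7 CPM with IgG, and the log2 fold change of 0.12 ± 0.06 missed the threshold (edgeR adjusted p = 0.108). It passed with column totals (0.21, adjusted p = 0.0138) and without IgG library 3 (0.17, adjusted p = 0.0485).

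Of the STAT3-inducible genes, IL1RN fell and SOCS3 could not be resolved. IL1RN had 7.77, 7.83 and 9.03 CPM in antagonist libraries and 11.3, 10.4 and 9.73 CPM in IgG libraries. The groups were separate, with less than 1 CPM between the nearest libraries. IL1RN fell by 0.35 ± 0.12 on the log2 scale (edgeR adjusted p = 0.0347). The call was lost with column totals (-0.28, adjusted p = 0.102), with DESeq2 (-0.34, adjusted p = 0.0801) and without IgG library 1 (-0.27, adjusted p = 0.123), IgG library 2 (-0.34), antagonist library 1 (-0.32) or antagonist library 2 (-0.32). SOCS3 had only 25, 36 and 43 counts in antagonist libraries and 20, 42 and 46 in IgG libraries. The groups overlapped across their whole range, and the log2 fold change was -0.12 ± 0.33 (edgeR adjusted p = 0.801). Its sign turned without IgG library 2 (0.03), IgG library 3 (0.14) or antagonist library 1 (0.05). IL1RN was thus lower than IgG with either antibody, at -0.38 with the agonist and -0.35 with the antagonist, while SOCS3 was higher with the agonist and not resolved with the antagonist. The difference between the antibodies was not tested, because set 2 genes were selected for differing.

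**Figure D3:**
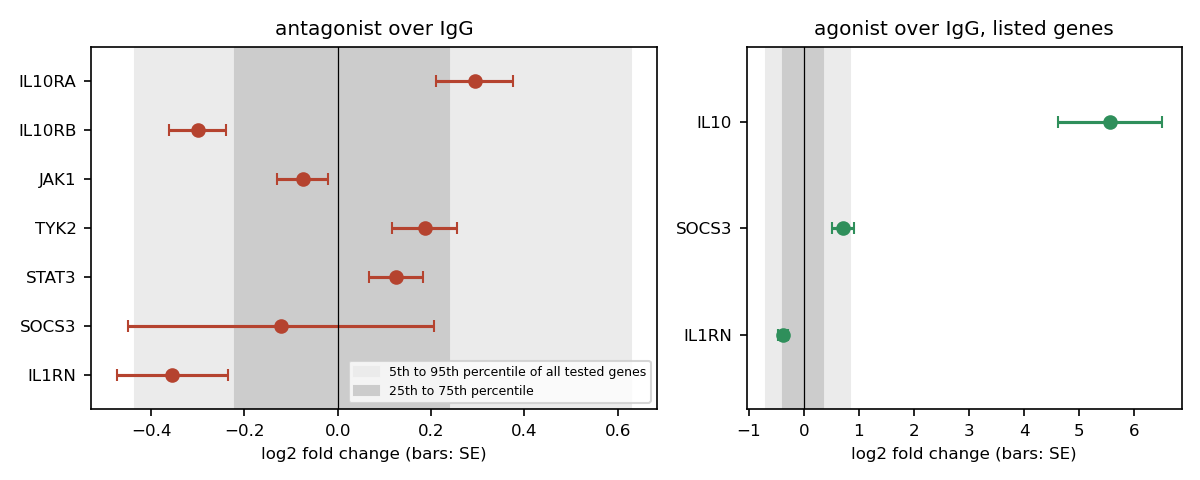
Log2 fold change of each pathway gene (points, with SE as bars) for antagonist over IgG and, on its own axis, agonist over IgG among listed genes. Grey bands give the 5th to 95th and 25th to 75th percentiles of all genes tested in that set. In set 1 no pathway gene lay outside the wider band of -0.43 to 0.63, and in set 2 the fitted value of IL10 lay far above it.

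Per kilobase of exon (GENCODE release 29, all exons of a gene merged), the pathway in set 1 was led by a kinase. TYK2 had 44.9 ± 2.1 CPM per kilobase in antagonist and 39.5 ± 3.3 in IgG libraries (SD, n = 3 each). JAK1, IL10RB and STAT3 followed, at 17 ± 0.3, 14.4 ± 0.2 and 17.3 ± 0.2 CPM per kilobase with the antagonist and 17.9 ± 0.3, 17.7 ± 0.8 and 15.9 ± 0.7 with IgG. JAK1 and STAT3 with the antagonist, and JAK1 and IL10RB with IgG, lay within about their spread of each other. IL10RA had 2.75 ± 0.08 CPM per kilobase with the antagonist and 2.24 ± 0.10 with IgG, below IL10RB in either group. IL1RN had 2.52 ± 0.22 with the antagonist and 3.22 ± 0.24 with IgG, so the order of IL10RA and IL1RN differed between the groups, although with the antagonist they lay within about their spread. SOCS3 had 0.705 ± 0.173 with the antagonist and 0.778 ± 0.339 with IgG, and IL10 was last at 0.0349 with the antagonist and 0.0336 with IgG.

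Around the pathway, 8 lists held 134 further tested genes in set 1, each counted once, and 22 of them (16.4%) rose and 21 (15.7%) fell with the antagonist, against 15.6% and 20.5% of all genes tested. Their median log2 fold change was 0.01. Genes said to rise or fall here passed an edgeR adjusted p of 0.05. Among other JAK kinases and STAT factors 3 of 8 rose. STAT2, a factor of type I interferon signalling, rose by 0.30 ± 0.06 (SE), JAK3 by 0.33 ± 0.07 and STAT6, the interleukin-4 factor, by 0.20 ± 0.05. STAT6 was lost without antagonist library 1 or antagonist library 3.

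Cytokine receptors that signal through JAK1, TYK2 or STAT3 were split, with 3 of 16 higher and 4 lower. The interleukin-13 receptor chain IL13RA1 fell by 0.43 ± 0.08, the type I interferon receptor chain IFNAR1 by 0.40 ± 0.09 and the common gamma chain IL2RG by 0.22 ± 0.05, while the interleukin-4 receptor IL4R rose by 0.28 ± 0.07. IL2RG was lost with column totals (-0.14). Of 18 ligands of the IL-10 and gp130 families 4 passed the count filter, and IL23A, a subunit of interleukin-23, rose by 0.44 ± 0.16, a call lost in 5 of 11 alternatives, DESeq2 among them. The classical STAT3 ligand IL6 had 0 counts in each antagonist library and 1, 0 and 0 in IgG libraries.

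Negative regulators had 2 of 23 genes higher and 5 lower. Among those that fell were the elongin subunits ELOB (-0.50 ± 0.07) and ELOC (-0.36 ± 0.09), which join SOCS proteins to a ubiquitin ligase and also serve other ligases. SOCS7 rose by 0.35 ± 0.08 and the STAT3 inhibitor PIAS3 by 0.30 ± 0.07. Genes induced by IL-10 or STAT3 had 5 of 32 higher and 5 lower. GAS6, a ligand of the clearance receptor MERTK, rose by 0.93 ± 0.13 and the angiogenic factor VEGFA by 0.32 ± 0.06. The glycoprotein LRG1 fell by 0.40 ± 0.06 and the protease inhibitor TIMP1 by 0.30 ± 0.06.

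Genes repressed by IL-10 had 1 of 8 higher and 1 lower, the class II transactivator CIITA at 0.66 ± 0.12 and the chemokine CCL5 at -0.39 ± 0.07. These 8 were the members above the count filter out of 23 in the table, and TNF was at 0 counts in each antagonist library and 0, 1 and 0 in IgG libraries. In the interleukin-1 axis 0 of 15 genes rose and 1 fell, the inflammasome adaptor PYCARD (-0.47 ± 0.06), and interleukin-1 beta itself, IL1B, had a log2 fold change of -0.19 (edgeR adjusted p = 0.39). With RLE scaling 1 gene of that axis was higher, and with column totals 2 were. Of 30 regulators of IL10 transcription 7 rose and 4 fell, among them the factor SP1 (0.30 ± 0.06) and the kinases SIK2 (0.34 ± 0.08) and SIK3 (0.31 ± 0.08), which restrain CREB coactivators, against ATF1 (-0.35 ± 0.09). SIK3 was lost without antagonist library 1 and ATF1 without antagonist library 3. The medians of the receptor, negative regulator, induced and interleukin-1 lists were between -0.07 and -0.03 and turned positive with column totals (0.01, 0.04, 0.05 and 0.04).

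**Figure D4:**
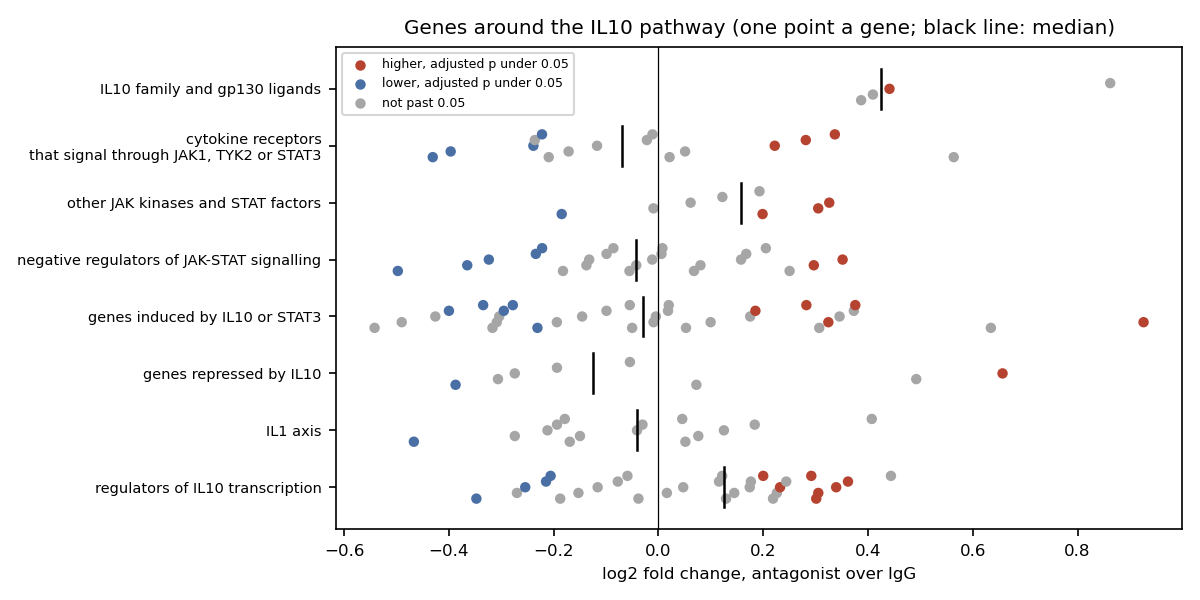
Log2 fold change, antagonist over IgG, of tested genes in 8 lists around the IL-10 pathway (points; red and blue passed an adjusted p of 0.05, grey did not; black lines are list medians, gene lists can share genes). Red and blue points lie on both sides of 0 in 6 of the lists, with no blue point among ligands and no red point in the interleukin-1 axis.

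With the agonist, 21 genes of these lists were in the selected table, 17 higher and 4 lower than with IgG, where 55.6% of all listed genes were called higher and 44.2% lower. Their median difference was 0.29 on the log2 scale, where that of all listed genes was 0.19. Of 8 listed genes induced by IL-10 or STAT3, 7 were higher. CD163, the haemoglobin scavenger receptor and a known IL-10 target, had 255 ± 19 CPM in agonist and 147 ± 23 CPM in IgG libraries (SD, n = 3 each; 0.80 ± 0.11, SE). The mRNA-decay factor ZFP36 was higher by 0.46 ± 0.08 and TIMP1 by 0.43 ± 0.06, while MYC was lower (-0.58 ± 0.07). Of 4 listed genes repressed by IL-10, CXCL10 was lower (-0.60 ± 0.09), and the neutrophil chemokine CXCL8 (0.46 ± 0.12), the costimulator CD86 (0.38 ± 0.12) and HLA-DRB1 (0.27 ± 0.07) were higher.

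Of the other JAK and STAT genes listed, STAT6 (0.34 ± 0.08), STAT2 (0.21 ± 0.06) and IRF9 (0.19 ± 0.07), the DNA-binding partner of STAT2, were higher, and JAK3 was lower (-0.43 ± 0.09). Among regulators of IL10 transcription the phosphatase DUSP1 was higher (0.94 ± 0.19), as was IRF3 (0.26 ± 0.08), with ETS1 lower (-0.37 ± 0.08). In the interleukin-1 axis PYCARD (0.29 ± 0.09) and the inhibitory receptor SIGIRR (0.25 ± 0.09) were higher. No gene of the ligand, receptor or negative regulator lists was in the selected table. A count of 17 higher was obtained under all 11 alternatives, but it rests on sign alone. Since the table was selected for differing, that count could hardly change. Of the genes named here, STAT2, IRF9, IRF3, CD86, PYCARD and SIGIRR no longer passed with RLE scaling. Calls of the unnamed list genes were not followed across the alternatives.

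Monocyte and macrophage markers were also higher with the agonist in set 2. All 7 listed of the 17 markers had a higher mean, in a table selected for differing in which 55.6% of genes were called higher, and the groups overlapped for CSF1R. The list had a summed level of 10325 to 10594 CPM in agonist libraries and 8295 to 8664 in IgG libraries. CD14, the endotoxin co-receptor, was at 183 ± 3 CPM with the agonist and 96.2 ± 11.7 CPM with IgG (0.93 ± 0.11). In set 1 all 17 markers summed to 6444 to 6856 CPM with the antagonist and 6592 to 7545 with IgG. Of 16 tested markers 2 were higher and 4 lower (edgeR adjusted p under 0.05), against 15.6% and 20.5% of all genes tested. These counts lie near the background. The set 2 sums cover only the 7 listed markers and are scaled by the counts of listed genes. The sums of the 2 sets therefore cannot be compared. IL-10 is also made by T and B cells. Of 13 T and NK markers CD247 (-1.10 ± 0.17) and NKG7 (0.22 ± 0.07) were listed for set 2, and no B cell marker was. In set 1 the T cell receptor gene CD3E had 0, 0 and 5 counts in antagonist libraries and 0 in IgG libraries, and the B cell gene MS4A1 had 0 in all 6. The part of these markers in the IL10 values was not tested.

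In the pattern over the 6 libraries of set 2, the listed genes most like IL10 were THBD (r = 0.995), HBEGF (0.995), EXOC7 (0.988), LOC100190986 (0.985) and MIR4691 (0.985), by Pearson correlation of log2(CPM + 1) among 903 genes. Those most like SOCS3 were PHLDA1 (0.993), LINC-PINT (0.986) and ITGB2-AS1 (0.984). EEF1AKMT1 (0.981), WARS1 (0.971) and XPNPEP3 (0.968) were most like IL1RN. In set 1, among 12917 genes, the closest to IL10RA was FAM106C (0.999), to IL10RB PPP2R2B (0.999), to STAT3 SF1 (0.998), to TYK2 TRPM2 (0.999), to JAK1 TSPAN17 (0.996) and to IL1RN ROCK1 (0.994). For SOCS3 in set 1 the closest was NUP188 (0.98), followed by HAAO (0.974) and the interleukin-6 receptor chain IL6R (0.971). These values describe 6 libraries that fall into 2 groups, out of all genes compared, and carry no test.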

How the data were processed

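RNA from 12 U937 libraries was sequenced. The deposited values are raw counts, whole numbers in 1 table a set. HISAT2, Cufflinks and build hg38 are named per the submitters' processing notes. Their versions, and the counter, annotation and strand setting, are not given in the sources used. Columns name the group but no replicate, so each was assigned to a group only, numbered by table order. The 570 rows without a symbol (0.0678% to 0.105% of counts) were left out.

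Each set was fitted alone in edgeR 4.0.16 (R 4.3.3) with filterByExpr, TMM scaling and a robust quasi-likelihood F test, and p-values were adjusted by Benjamini-Hochberg over all genes tested (threshold 0.05). SE came from the fold change and its F statistic. The fit was tested on simulated data. Alternatives were RLE scaling, column totals, DESeq2 1.42.0, no filter, 10 counts in every library of a group, and leaving out each library. Named list genes were, per list and set, up to 4 passing members with the smallest p, plus genes singled out in a count (IL6, LIF, TNF, IL1B, CD3D, CD3E, MS4A1), picked after their values were seen. Promoters of all 8 members (15 windows) came from RefSeq. The members and lists were chosen with earlier results of these data known.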

Additional observations from a re-analysis of the deposited data

Results flagged for a closer look

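For 8 of the list genes selected by the naming rule, every antagonist library lay on one side of its IgG libraries and every agonist library on the opposite side of its own. Groups did not overlap for 49% of all genes tested in set 1 (21.9% higher, 27.1% lower). In set 2 the same was so for 97.6% of listed genes (53.4% higher, 44.1% lower). The naming rule took genes that passed in these same data. The share of all shared genes with opposite sides was not counted, so these 8 are not read as exceeding it. The difference between the antibodies was not tested, and set 2 genes were selected for differing. JAK3 had a log2 fold change of -0.43 with the agonist and 0.33 with the antagonist. The others were higher with the agonist and lower with the antagonist. PYCARD had 0.29 with the agonist and -0.47 with the antagonist. TYROBP had 0.54 with the agonist and -0.38 with the antagonist, and TIMP1 had 0.43 with the agonist and -0.30 with the antagonist. NKG7 had 0.22 with the agonist and -0.32 with the antagonist, and DUSP1 had 0.94 with the agonist and -0.27 with the antagonist. HLA-DRB1 had 0.27 with the agonist and -0.31 with the antagonist, and CD68 had 0.33 with the agonist and -0.16 with the antagonist. With the antagonist, DUSP1, HLA-DRB1 and CD68 did not pass an edgeR adjusted p of 0.05. Of the 8 pathway genes, only SOCS3 and IL1RN passed the count filter in both sets, and neither showed this pattern. The others could not be compared in this way. Among list genes outside the naming rule, FCER1G had 0.30 with the agonist and -0.28 with the antagonist, and SERPINA1 had 0.17 with the agonist and -0.33 with the antagonist, also without overlap.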

How the results depend on the processing

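No paired analysis was possible because the columns carry no replicate numbers. IL10RB kept its call in all alternatives. With column totals, JAK1 reversed (0.0053), TYK2 (0.27) and STAT3 (0.21) passed and IL1RN (-0.28) did not. TYK2 also passed with RLE scaling (0.21), DESeq2 (0.21) and no filter (0.18), and IL1RN was lost with DESeq2 (-0.34). Leaving out each library in turn gave 3143 to 5075 genes called, 2 to 5 of the pathway genes and 25 to 48 of the list genes in set 1, the lowest without antagonist library 1 (3143 and 27) or antagonist library 3 (3190 and 25). In the same runs IL10RA lay between 0.27 and 0.35, IL1RN between -0.43 and -0.27, TYK2 between 0.15 and 0.24, STAT3 between 0.12 and 0.17, and SOCS3 between -0.43 and 0.14, reversing without IgG library 2 (0.03), IgG library 3 (0.14) or antagonist library 1 (0.05). In set 2 the fitted IL10 value lay between 5.06 and 7.47, its summed level between 4.81 and 8.15 CPM of listed genes with the agonist and between 0 and 0.164 with IgG. The causes were not tested. Of 30 list genes named in set 1, 23 kept their calls in all alternatives, and of 23 in set 2, 16 did, with 0 reversals in either. In set 1 IL10 and SOCS3 had few counts, and SOCS3 also varied among IgG libraries (20, 42 and 46 counts). The selected table limits every statement on the agonist.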

Other observations

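Several genes of the lists were at or near 0 in set 1 and well counted in set 2, controls included. CD163 had 0, 1 and 0 counts in antagonist libraries and 0 in each IgG library of set 1, against 831, 875 and 834 in agonist libraries and 502, 467 and 387 in IgG libraries of set 2. CD86 had 2, 2 and 1 counts with the antagonist and 6, 6 and 0 with IgG in set 1, against 355, 415 and 460 with the agonist and 313, 279 and 290 with IgG in set 2. CD14 had 5, 5 and 3 counts with the antagonist and 7, 6 and 9 with IgG in set 1, against 630, 588 and 610 with the agonist and 344, 285 and 263 with IgG in set 2. The 902 shared genes summed to between 2488002 and 2593812 counts in antagonist libraries and between 2546977 and 2773701 in set 1 IgG libraries. In set 2 they summed to between 3135676 and 3521856 counts in agonist libraries and between 2764069 and 3321209 in IgG libraries. The labels give both sets the same line and the same interferon gamma dose.

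In set 1, antagonist library 3 alone held most counts of a few genes that were otherwise at or near 0. LIF, a gp130-family cytokine, had 0, 1 and 10 counts in antagonist libraries and 0 in each IgG library, and CD3D had 0, 0 and 3 counts against 0. Among antagonist libraries IL10 was also highest in that library, with 3 counts, but IgG library 1 had 3 as well.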
